A study of Mus musculus with 6 samples.

Results

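Cells take up iron, store it, release it and recycle it from heme, and the genes described here carry out or control those steps. They are Tfrc, Slc11a2 and Steap3 for uptake, Fth1, Ftl1 and Ncoa4 for storage, Slc40a1 for export, Aco1 and Ireb2 for control, and Hmox1 for heme breakdown. The 10 genes were selected by symbol from the 46095 genes of the deposited table, with earlier results from the same 6 libraries known, so their changes are given as descriptions and their p-values come from a fit across the whole table. The study sequenced RNA from 3T3-L1 cells, a mouse preadipocyte line that can be turned into fat cells in culture, at 8 days after differentiation. One group of 3 libraries came from untreated cells, and the other group of 3 libraries came from cells that received Smilax glabra flavonoids, plant polyphenols, at 0.125 μg/mL. The labels give no vehicle for the untreated cells, no length of exposure, and no statement that the replicates were separate cultures, so p-values measure the spread between these libraries, which may be technical.

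The check of the labelled cell type gave a mixed picture. Pparg, the master regulator of fat cell identity, stood at 10.8 FPKM in untreated and 11.6 FPKM in treated libraries (FPKM is the fragment count scaled by transcript length and library depth). Adipoq, the gene of the fat cell hormone adiponectin, did not exceed 0.735 FPKM in any library (lowest 0.0321), and 5 of the 10 adipocyte markers examined reached the mean of 1 FPKM needed for testing. None of these 5 was called changed. The other 5, Adipoq, Plin1, Cidec, Slc2a4 and Cd36, had means under 1 FPKM, with Cidec at most 0.289 FPKM and Cd36 at most 0.0211 FPKM in any library. The summed level of the 10 markers was 403 to 426 FPKM in untreated and 366 to 534 FPKM in treated libraries, mostly from the fatty acid carrier Fabp4 (219 and 170 FPKM) and the lipase Lpl (163 and 262 FPKM), whose means differed in opposite directions. With a trend over transcript length removed, described further on, Lpl and Plin4 were called higher (limma adjusted p = 0.0107 and 0.0265) and Fabp4 lower (0.00913). In such bulk RNA, fewer cells of a type and less RNA per cell cannot be told apart.

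Iron enters most cells bound to transferrin, which the transferrin receptor carries into endosomes, where a STEAP reductase reduces the metal and the transporter encoded by Slc11a2 moves it into the cytosol. Iron that is not used is stored inside ferritin, a shell of heavy and light chains, or leaves through ferroportin, the product of Slc40a1. When iron is scarce, the iron regulatory proteins bind hairpins called iron-responsive elements. Binding in a 3′ UTR protects the Tfrc mRNA from decay, so its level rises, while binding in a 5′ UTR blocks translation of the ferritin and ferroportin mRNAs without a direct change in their level. Tfrc, the ferritin genes and Hmox1 are also known targets of transcription factors that respond to hypoxia, growth signals or oxidative stress.

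The hairpins themselves are shown because their place in the mRNA, in the 3′ or the 5′ UTR, is what textbook accounts tie to control of decay or of translation. The GENCODE M21 transcripts (GRCm38) were searched for a bulged C, an upper stem of 5 base pairs and a loop of CAGTG followed by any base but G, in windows of 27 bases, with at least 4 of the 5 upper pairs formed (G·U pairs allowed). In each sequence the capitals mark the 6 loop bases. The first 4 sites lie on the forward strand of chromosome 16 in the 3′ UTR of Tfrc, at chr16:32631220-32631246, chr16:32631599-32631625, chr16:32631664-32631690 and chr16:32631711-32631737. The Slc11a2 site lies in the 3′ UTR on the reverse strand at chr15:100395154-100395180. The Fth1 site lies in the 5′ UTR on the forward strand at chr19:9982733-9982759, and the Ftl1 and Slc40a1 sites lie in 5′ UTRs on the reverse strand at chr7:45459780-45459806 and chr1:45925466-45925492.
Tfrc site 1: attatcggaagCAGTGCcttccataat
Tfrc site 2: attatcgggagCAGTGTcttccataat
Tfrc site 3: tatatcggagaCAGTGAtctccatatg
Tfrc site 4: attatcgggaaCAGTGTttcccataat
Slc11a2 site: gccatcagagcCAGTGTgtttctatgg
Fth1 site: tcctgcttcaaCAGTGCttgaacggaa
Ftl1 site: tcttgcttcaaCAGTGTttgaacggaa
Slc40a1 site: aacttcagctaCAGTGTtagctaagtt

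All 4 Tfrc sites formed 5 of 5 upper and 5 of 5 lower stem pairs, as did the Slc40a1 site, and the Fth1 and Ftl1 sites formed 5 upper and 4 lower pairs. The Slc11a2 site scored lower by this count, with 4 upper pairs and 1 lower pair, and lies in 1 of the 6 annotated protein-coding transcripts of the gene. The count allows no unpaired base in the arm after the loop. If the c after gttt in the Slc11a2 site is left unpaired, more bases pair, so the low count does not show a weaker hairpin. Over 21877 protein-coding genes, a site with at least 4 upper pairs was present in the 5′ UTR of 0.640% and in the 3′ UTR of 3.02%. With 5 upper and at least 4 lower pairs required, 6 genes held a site in the 5′ UTR (Alas2, Fth1, Ftl1, Ftl1-ps1, Ppp1r1b and Slc40a1) and 7 in the 3′ UTR, Tfrc among them. No site was found in the UTRs of Steap3, Ncoa4, Aco1, Ireb2 or Hmox1. The same search also found none in Epas1 or Cdc42bpa, which are named further on among transcripts known for an element. It therefore missed some known elements, and the lack of a match does not show that a gene has none. A match is a description of the letters and no measure of protein binding.

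The libraries held between 21952064 and 26355863 fragments recovered from the FPKM values. A mean of 1 FPKM or more was reached by 11464 genes, and 1145 of them were called changed at an adjusted p under 0.05 in limma's moderated test with Benjamini-Hochberg adjustment (557 higher, 588 lower, median log2 change −0.02). The untreated libraries differed by transcript length: the median of long genes minus that of short genes, relative to the mean library and on the log2 scale, was −0.35 in replicate 1, 0.06 in replicate 2 and 0.52 in replicate 3, against −0.04, −0.05 and −0.11 in the treated libraries. Values with this trend removed are given beside each of the 10 genes, and the number called in each list is given again where the removal changed it. With the trend removed, 1379 of the 11464 tested genes were called higher and 1131 lower, and the list counts in that setting stand beside these.

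All 10 iron genes passed the filter on low values. Of these, 3 were called higher with flavonoids, Tfrc, Slc11a2 and Hmox1, against 4.86% of all tested genes, and 0 were called lower, against 5.13%. In 7 genes all 3 treated values lay above all 3 untreated values (these 3 together with Fth1, Ftl1, Slc40a1 and Aco1), an arrangement that 17.0% of all tested genes showed. Steap3, Ncoa4 and Ireb2 overlapped between the groups. The median log2 change over the 10 genes was 0.38. After removal of the length trend, 6 of the 10 were called higher, against 12.0% of all tested genes. Since the genes were proposed with this comparison known, nothing is read from these shares.

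**Figure D1:**
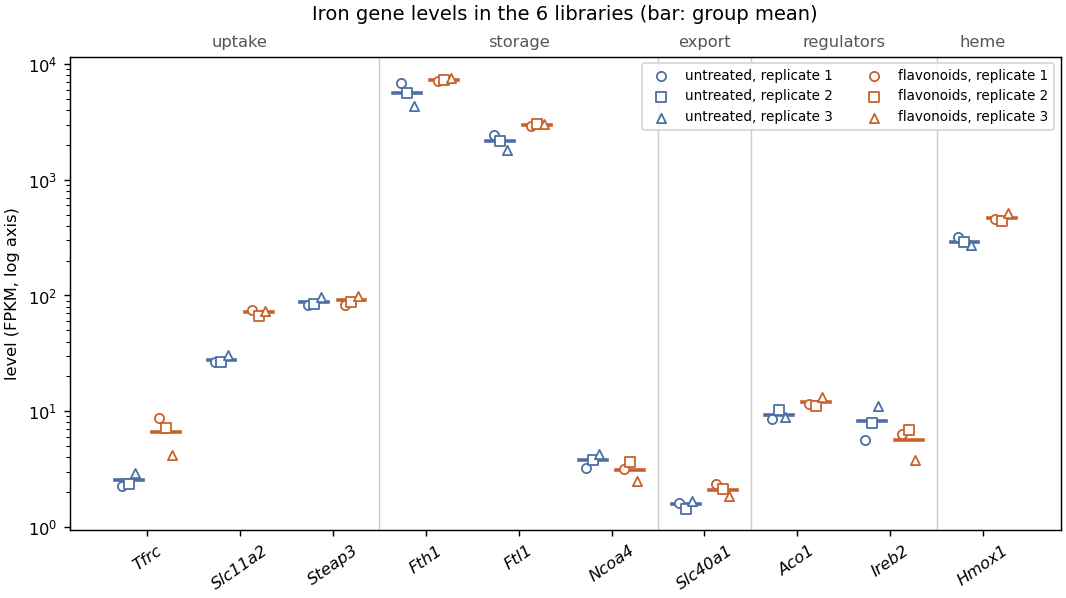
Level of each iron gene in the 6 libraries, in FPKM on a log axis, with untreated cells in blue, flavonoid-treated cells in orange, 1 symbol shape per replicate number and a bar at each group mean. The groups are widest apart for Slc11a2 (27.9 against 71.7 FPKM) and Tfrc (2.52 against 6.64 FPKM), and the ferritin chains Fth1 and Ftl1 stand far above all the others.

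Among the uptake genes, the clearest difference was in Slc11a2, which encodes the divalent metal transporter DMT1 (GRCm38 chr15:100387898-100425072, reverse strand). Its level was 26.7, 26.7 and 30.3 FPKM in the untreated libraries and 74.3, 66.8 and 73.9 FPKM in the treated libraries. The groups were far apart compared with the spread within either. The group means were 27.9 ± 2.06 and 71.7 ± 4.26 FPKM (SD over 3 libraries each), a 2.57-fold rise. The log2 change was 1.33 on the log2(FPKM + 1) scale, with a standard error of 0.11, a 95% interval of 1.08 to 1.58 and a limma adjusted p of 0.00155, and the gene was called in 23 of 23 alternative settings (1.40 with the length trend removed, limma adjusted p = 2.90e-05). The gene's value sums transcripts with and without the iron-responsive element, which have lengths of 4415 and 3025 bases for the longest of each kind, so the level of either form is not given by these values. Gm5475, an antisense gene sharing 402 exonic bases with Slc11a2, stayed at or below 0.104 FPKM.

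Tfrc, which encodes the transferrin receptor (chr16:32608920-32632794, forward strand), stood lower than Slc11a2 but moved in the same direction. It measured 2.24, 2.37 and 2.95 FPKM in untreated and 8.66, 7.10 and 4.15 FPKM in treated libraries, corresponding to 243, 272 and 366 and to 1065, 925 and 506 fragments. The treated libraries all lay above the untreated ones, but they were widely spread and replicate 3 had the lowest value of the 3. The mean rose from 2.52 ± 0.378 to 6.64 ± 2.29 FPKM (SD, n = 3), 2.64-fold, with a log2 change of 1.08 (standard error 0.23, 95% interval 0.56 to 1.59, limma adjusted p = 0.0213). The call was lost without untreated replicate 2 (adjusted p = 0.103), without flavonoids replicate 1 (0.0871) and without flavonoids replicate 2 (0.0754), with genes of any level kept in the test (0.0925) and with a replicate block (0.0693). With the length trend removed the change was 1.16 with an adjusted p of 0.00141, and the treated libraries stood at 8.64, 7.11 and 4.63 FPKM. Red cell precursors are known for very high Tfrc. The summed FPKM of 7 erythroid markers was 4.95 to 5.83 in untreated and 2.71 to 3.06 in treated libraries, almost wholly from Epor, the 1 marker tested and called lower, and the globin genes Hba-a1 and Hbb-bs were at 0 in all 6 libraries. The Epor call was lost without untreated replicate 2, flavonoids replicate 1 or flavonoids replicate 2, and with a replicate block.

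Steap3, an endosomal ferrireductase that works between these proteins (chr1:120190757-120272705, reverse strand), had overlapping groups. Its values were 83.0, 83.7 and 97.5 FPKM in untreated and 83.3, 88.5 and 99.7 FPKM in treated libraries. Each group spanned nearly the same range. The log2 change was 0.04 with a 95% interval of −0.24 to 0.32 (limma adjusted p = 0.871), or 0.07 (0.668) with the length trend removed, and its sign depended on the setting.

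Of the 16 uptake genes listed, 13 were tested, 4 were called higher and 1 was called lower, with a median log2 change of 0.07 against −0.02 for all tested genes. Beside Tfrc and Slc11a2, the 2 others called higher were Steap1 and Mcoln1. Steap1, a relative of Steap3 in the STEAP family, measured 48.4, 36.8 and 36.4 FPKM in untreated and 85.9, 75.9 and 77.3 FPKM in treated libraries, a log2 change of 0.97 (limma adjusted p = 0.00591). Mcoln1, a cation channel that releases iron and calcium from late endosomes and lysosomes, rose from 79.0 ± 2.57 to 143 ± 1.88 FPKM (SD, n = 3), a log2 change of 0.85 (adjusted p = 0.00379). The gene called lower was Slc22a17, the receptor of the iron-siderophore carrier lipocalin 2, at 3.16 ± 0.339 against 1.68 ± 0.173 FPKM (log2 change −0.63, adjusted p = 0.0256). Its ligand Lcn2 was abundant at 1041 ± 167 and 1585 ± 142 FPKM and was not called (limma adjusted p = 0.0627), though it was with the length trend removed (0.000767). That removal gave 6 uptake genes called higher, the 4 above with Lcn2 and Slc39a14, and 2 called lower, Slc22a17 and Scara5. In that setting 12.0% of all tested genes were called higher. Without untreated replicate 2 the numbers of uptake genes called were 2 higher and 0 lower, and Slc22a17 was not called when any 1 treated library was left out.

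**Figure D2:**
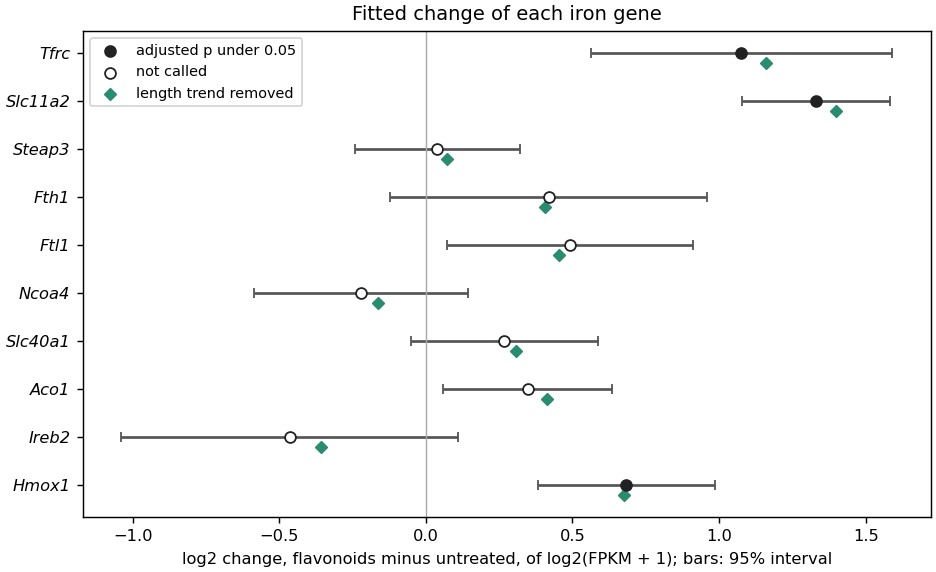
Fitted log2 change of each iron gene, flavonoids minus untreated, on the log2(FPKM + 1) scale, with 95% intervals as bars, filled circles for an adjusted p under 0.05, and green diamonds for the change after removal of the length trend. Slc11a2, Tfrc and Hmox1 have filled circles, and the diamonds of all 10 genes lie on the same side of 0 as their circles.

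Ferritin made up one of the largest shares of RNA in these cells. Fth1, the heavy chain with ferroxidase activity (chr19:9980598-9985098, forward strand), measured 6799, 5641 and 4323 FPKM in untreated and 7148, 7318 and 7574 FPKM in treated libraries. Every treated value was above every untreated value, and the untreated libraries were the more widely spread. By FPKM it ranked 2 among all genes in each untreated library and 1 in each treated library. The means were 5588 ± 1238 and 7347 ± 214 FPKM (SD, n = 3), a ratio of 1.31, and the log2 change of 0.42 had a 95% interval of −0.12 to 0.96 (limma adjusted p = 0.300).

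Ftl1, the light chain that helps form the iron core (chr7:45457944-45459884, reverse strand), gave a similar arrangement. It stood at 2436, 2186 and 1811 FPKM in untreated and 2908, 3026 and 3043 FPKM in treated libraries. The treated values were close together and all were higher. The means were 2144 ± 314 and 2992 ± 73.6 FPKM (SD, n = 3), a ratio of 1.40, with a log2 change of 0.49, a 95% interval of 0.07 to 0.91 and a limma adjusted p of 0.130. The ratio of Fth1 to Ftl1 was 2.79, 2.58 and 2.39 in untreated and 2.46, 2.42 and 2.49 in treated libraries, and the 2 chains together were 1.45% to 1.76% of all summed FPKM in untreated and 2.03% to 2.17% in treated libraries. Ftl1 has many near-identical copies: 58.4% of its 50-base words occur in another annotated gene, 47.3% in Ftl1-ps1 alone, so how its reads were shared out is uncertain. Ftl1-ps1 was listed at 1.63% to 1.92% of the Ftl1 value.

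The length trend bore on both ferritin chains, whose transcripts are short (1521 and 976 bases, as implied by the ratio of fragments to FPKM). Among the untreated libraries both chains were highest in replicate 1, which had the lowest long-gene signal, and lowest in replicate 3, which had the highest. With the trend removed, Fth1 stood at 6136, 5581 and 4898 FPKM against 7100, 7154 and 7713 FPKM, a log2 change of 0.41 with an adjusted p of 0.0113. Ftl1 stood at 2106, 2184 and 2177 FPKM against 2819, 2929 and 3123 FPKM, a log2 change of 0.45 with an adjusted p of 0.00229. The size of either change hardly moved, while the spread among untreated libraries became smaller. Ftl1 was also called under TPM scaling (adjusted p = 0.0362) and quantile normalization (0.0181), where Fth1 was not (0.130 and 0.127). Fth1 ranked 2 in each untreated and 1 in each treated library, and quantile normalization sets values by rank. That setting therefore cannot measure the size of the Fth1 change.

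**Figure D3:**
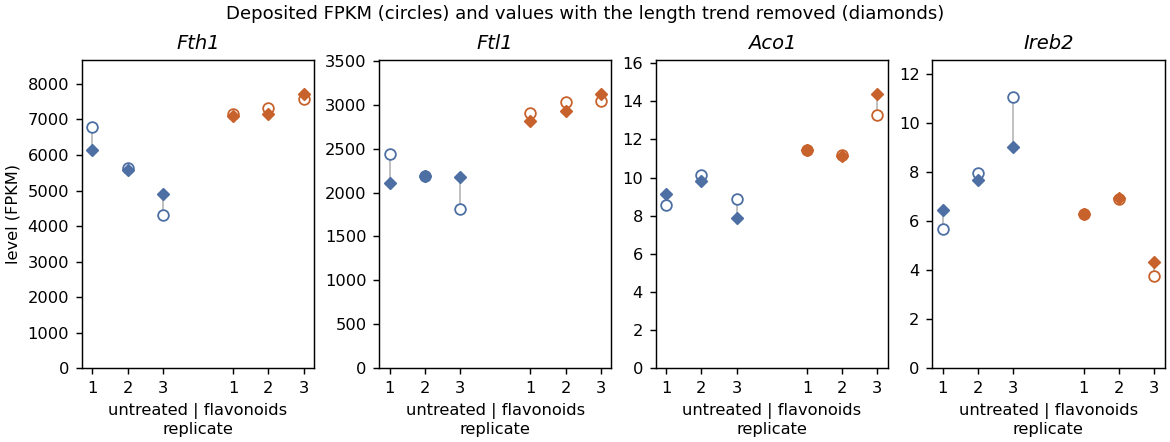
Levels of Fth1, Ftl1, Aco1 and Ireb2 in FPKM, with untreated libraries in blue and treated libraries in orange by replicate number, as deposited (circles) and after removal of the length trend (diamonds), each panel starting at 0. The 3 untreated Ftl1 values draw together after the correction, from 1811 to 2436 FPKM to between 2106 and 2184 FPKM, and the Ireb2 groups still overlap.

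Ncoa4, the receptor that delivers ferritin to lysosomes so that its iron can be released (chr14:32159865-32179855, forward strand), was far lower. Its level was 3.24, 3.77 and 4.29 FPKM in untreated and 3.15, 3.67 and 2.47 FPKM in treated libraries, and the groups overlapped. The log2 change was −0.22 with a 95% interval of −0.59 to 0.14 (limma adjusted p = 0.416), or −0.16 (0.400) with the length trend removed. The annotated gene Gm6768, at 1.36 to 3.24 FPKM, shares 17.9% of the 50-base words of Ncoa4, which makes the division of reads between them uncertain. Of the 8 storage genes listed, 6 were tested and 0 were called in either direction by limma, with a median log2 change of 0.21. Pcbp1 and Pcbp2, chaperones that hand iron to ferritin, stood at 353 and 455 FPKM in untreated and 436 and 488 FPKM in treated cells. After removal of the length trend, 12.0% of all tested genes were called higher, among them 3 storage genes, Fth1, Ftl1 and Pcbp1 (limma adjusted p of Pcbp1 0.0296).

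Slc40a1, the only known iron exporter of mammalian cells (chr1:45908068-45926523, reverse strand), was barely above the level needed for testing. It measured 1.62, 1.43 and 1.66 FPKM in untreated and 2.35, 2.11 and 1.84 FPKM in treated libraries, from 121, 113 and 142 and from 199, 189 and 154 fragments. The treated values were all higher, the lowest of them by a small margin. The means were 1.57 ± 0.124 and 2.10 ± 0.257 FPKM (SD, n = 3), and the log2 change of 0.27 had a 95% interval of −0.05 to 0.59 (limma adjusted p = 0.260), and 0.31 (0.113) with the length trend removed. Of the 8 export genes listed, 4 were tested and 0 were called by limma, with a median log2 change of −0.26. The ferroxidases that work with ferroportin, Heph and Cp, stood at 19.9 and 33.6 FPKM in untreated and at 14.0 and 27.6 FPKM in treated cells (limma adjusted p = 0.112 and 0.467). All 3 treated Heph values lay below the untreated ones, and with the length trend removed Heph was called lower (log2 change −0.40, limma adjusted p = 0.0318). Leaving out untreated replicate 1 also gave 1 export gene called lower.

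The 2 iron regulatory proteins pointed in different directions and neither was called. Aco1 encodes IRP1, which is a cytosolic aconitase when it holds an iron-sulfur cluster and an RNA-binding protein when it does not (chr4:40143081-40198338, forward strand). It measured 8.57, 10.1 and 8.85 FPKM in untreated and 11.4, 11.2 and 13.3 FPKM in treated libraries. All 3 treated values were higher, with a log2 change of 0.35, a 95% interval of 0.06 to 0.64 and a limma adjusted p of 0.121. With the length trend removed the change was 0.41 (adjusted p = 0.0437), the single setting of 23 in which Aco1 was called.

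Ireb2 encodes IRP2, which is degraded when iron is plentiful (chr9:54863789-54912530, forward strand). Its values were 5.69, 7.98 and 11.1 FPKM in untreated and 6.30, 6.89 and 3.78 FPKM in treated libraries, a wide spread with overlap. The log2 change was −0.46 with a 95% interval of −1.04 to 0.11 (limma adjusted p = 0.277), and −0.36 (adjusted p = 0.152) with the length trend removed. Ireb2 is a long transcript (5846 bases, as implied by the values), and the order of its untreated libraries was that of their long-gene signal. Fbxl5, the iron-sensing ubiquitin ligase adaptor that marks IRP2 for destruction, stood at 37.2 ± 2.01 and 36.7 ± 3.63 FPKM (SD, n = 3, log2 change −0.02, adjusted p = 0.926). RNA levels do not measure the binding activity of either protein.

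Hmox1, the heme oxygenase that opens heme and frees its iron (chr8:75093621-75100589, forward strand), measured 318, 287 and 272 FPKM in untreated and 457, 441 and 514 FPKM in treated libraries. The groups were clearly apart. The mean rose from 292 ± 23.7 to 470 ± 38.4 FPKM (SD, n = 3), 1.61-fold, with a log2 change of 0.68, a standard error of 0.13, a 95% interval of 0.38 to 0.98 and a limma adjusted p of 0.0163. The call was lost without untreated replicate 2 (adjusted p = 0.113), flavonoids replicate 1 (0.0794), flavonoids replicate 2 (0.0638) or flavonoids replicate 3 (0.0612), and with a replicate block (0.0563), while the change stayed between 0.62 and 0.75 when any single library was left out. With the length trend removed it was 0.67 (adjusted p = 0.000749). Hmox1 is also abundant in macrophages. The summed FPKM of 8 macrophage markers was 14.0 to 19.0 in untreated and 25.9 to 28.3 in treated libraries, of which 3 were tested and 1, Cd14, was called higher (12.6 to 23.4 FPKM, limma adjusted p = 0.0169), a call lost when untreated replicate 2 or any 1 treated library was left out. The defining marker Ptprc was at 0 in all 6 libraries and Adgre1 reached at most 0.0140 FPKM, and the part of Cd14-expressing cells in the Hmox1 change was not tested.

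Of the 15 genes of heme synthesis and breakdown, all were tested, 6 were called higher and 0 lower, with a median log2 change of 0.12. Besides Hmox1 these were Cpox, which makes protoporphyrinogen (17.3 to 28.7 FPKM, log2 change 0.69, limma adjusted p = 0.0139), Alas1, the rate-limiting first enzyme outside red cells (8.62 to 13.0 FPKM, 0.54, limma adjusted p = 0.0304), and Slc25a38, the mitochondrial glycine carrier (2.82 to 4.90 FPKM, 0.64, limma adjusted p = 0.0355), followed by Slc48a1 and Abcb10. Hmox2, the constitutive heme oxygenase, stood at 64.6 and 55.5 FPKM (adjusted p = 0.421). Without untreated replicate 2, flavonoids replicate 1 or flavonoids replicate 2 the number called was 0, as it was with a replicate block, and without flavonoids replicate 3 it was 1. Removal of the length trend left the same 6 genes called higher and 1, Blvrb, called lower.

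Mitochondria use most cellular iron for heme and iron-sulfur clusters. Of 29 genes listed for mitochondrial iron and cluster assembly, 27 were tested, 2 were called higher and 0 lower, with a median log2 change of 0.13. That count lies near the 4.86% of all tested genes called higher. They were Hspa9, a mitochondrial chaperone used in cluster transfer among other tasks (178 to 310 FPKM, log2 change 0.79, limma adjusted p = 0.0105), and Ciapin1, a cluster assembly factor of the cytosol (18.3 to 28.0 FPKM, 0.59, limma adjusted p = 0.0255). Both calls were lost without untreated replicate 2, flavonoids replicate 1 or flavonoids replicate 2. With the length trend removed, 7 genes of this list were called higher and 1 lower, when 12.0% of all tested genes were called higher.

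The iron genes can be set beside the responses that are known to control them. Among 4 transcripts known for a 3′ iron-responsive element, 3 were tested and 2, Tfrc and Slc11a2, were called higher. Of all tested genes, 4.86% were called higher. Both Tfrc and Slc11a2 are already counted above among the iron genes, so this count is no separate result. Outside the iron genes, 1 transcript of this list was tested and 0 were called. It was Cdc42bpa, at 4.20 and 3.10 FPKM (log2 change −0.29, limma adjusted p = 0.607). Of the transcripts known for a 5′ element, Fth1, Ftl1 and Slc40a1 were not called, as described above, Epas1, which encodes HIF-2α, stood at 12.1 and 13.3 FPKM and was not called either (limma adjusted p = 0.679), and Alas2 was listed at 0 in all libraries. With the length trend removed, 2 transcripts of this list, Fth1 and Ftl1, were called higher, when 12.0% of all tested genes were. Both Fth1 and Ftl1 are also already counted above among the iron genes. Of 6 RNA-binding proteins known to act on Tfrc mRNA, 0 were called higher and 1, Zfp36 (tristetraprolin), was called lower, from 263 ± 18.3 to 185 ± 22.2 FPKM (SD, n = 3, log2 change −0.51, adjusted p = 0.0483). That call was lost when untreated replicate 2 or any 1 treated library was left out. It was also lost with genes of any level kept in the test, with median-ratio scaling of the libraries and with a replicate block. Zc3h12a was called higher as well with the length trend removed.

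Hypoxia-inducible factors are known to activate Tfrc, Slc11a2 and Hmox1 in other settings. Of 12 tested targets outside the iron genes, 11 were called lower and 0 higher, with a median log2 change of −0.82. The prolyl hydroxylase Egln3 measured 14.1, 16.1 and 13.5 FPKM in untreated and 3.33, 4.17 and 3.77 FPKM in treated libraries (log2 change −1.71, limma adjusted p = 0.00155), and the mitophagy receptor Bnip3 fell from 92.1 to 34.3 FPKM (−1.38, limma adjusted p = 0.00328). The exception was Vegfa at 52.1 and 60.7 FPKM. The subunit gene Hif1a was not called, at 29.4 and 34.0 FPKM (adjusted p = 0.643). Leaving out single libraries gave 3 to 11 targets called lower, the 3 without untreated replicate 2, and 7 without flavonoids replicate 1 or 2.

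NRF2, the factor that responds to oxidative and electrophilic stress, activates ferritin, ferroportin and Hmox1, and BACH1 represses the same genes when heme is low. Of 12 tested NRF2 targets outside the iron genes, 3 were called higher and 0 lower, with a median log2 change of 0.32. They were Srxn1 (16.8 to 24.9 FPKM, limma adjusted p = 0.0168), Abcc4 (3.09 to 5.80 FPKM, limma adjusted p = 0.0300) and Gsr (11.2 to 18.0 FPKM, limma adjusted p = 0.0363), whereas Nqo1, among the most used readouts of NRF2, stood at 12.8 and 11.6 FPKM (limma adjusted p = 0.606). Nfe2l2 and Bach1 themselves stood at 43.9 and 6.54 FPKM in untreated and at 45.3 and 7.19 FPKM in treated cells, and 0 of 6 genes of the NRF2 and BACH1 group were called by limma. The number of targets called higher was 0 without untreated replicate 2, flavonoids replicate 1 or flavonoids replicate 2, and 1 without flavonoids replicate 3. It was also 0 with a replicate block. With the length trend removed, 6 targets were called higher and 1 lower, when 12.0% of all tested genes were called higher. In that setting 2 of the 6 genes of the NRF2 and BACH1 group were called higher too.

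The integrated stress response, which acts through ATF4, raises Chac1 and other targets and is also known to raise Hmox1. Of the 9 tested genes of the ATF4 list, 7 were called higher and 0 lower, with a median log2 change of 0.88. The list includes Atf4 itself, which is among those called higher (553 to 875 FPKM, log2 change 0.68, limma adjusted p = 0.0408). The factor Ddit3 measured 27.2, 22.0 and 20.1 FPKM in untreated and 68.4, 67.8 and 63.1 FPKM in treated libraries (log2 change 1.49, limma adjusted p = 0.00180), and the pseudokinase Trib3 rose from 46.1 to 129 FPKM (1.47, limma adjusted p = 0.00180). The number called was 4 without untreated replicate 2 or flavonoids replicate 1.

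TFEB and its relatives drive lysosome and autophagy genes, the route by which ferritin iron is recovered. Of 12 genes tested, the factor genes Tfeb, Tfe3 and Mitf among them, 5 were called higher and 0 lower, with a median log2 change of 0.32. Mcoln1, the lysosomal channel named above, belongs to this list too. The number called was 1 without untreated replicate 2, 2 without flavonoids replicate 1 and 3 without flavonoids replicate 2. It was 7 with the length trend removed, when 12.0% of all tested genes were called higher. MYC is a known activator of Tfrc and Ireb2 and a repressor of Fth1. Myc itself measured 33.9, 32.0 and 31.9 FPKM in untreated and 85.1, 81.1 and 76.7 FPKM in treated libraries (2.48-fold, log2 change 1.29, limma adjusted p = 0.00155). The MYC list of 6 genes includes Myc. Of these 6, 3 were called higher, Myc among them, and 1, Ldha, lower, a gene that is a hypoxia target as well. The number called higher was 1 without untreated replicate 2 or flavonoids replicate 1, and Ldha was not called when untreated replicate 2 or any 1 treated library was left out, nor with a replicate block.

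**Figure D4:**
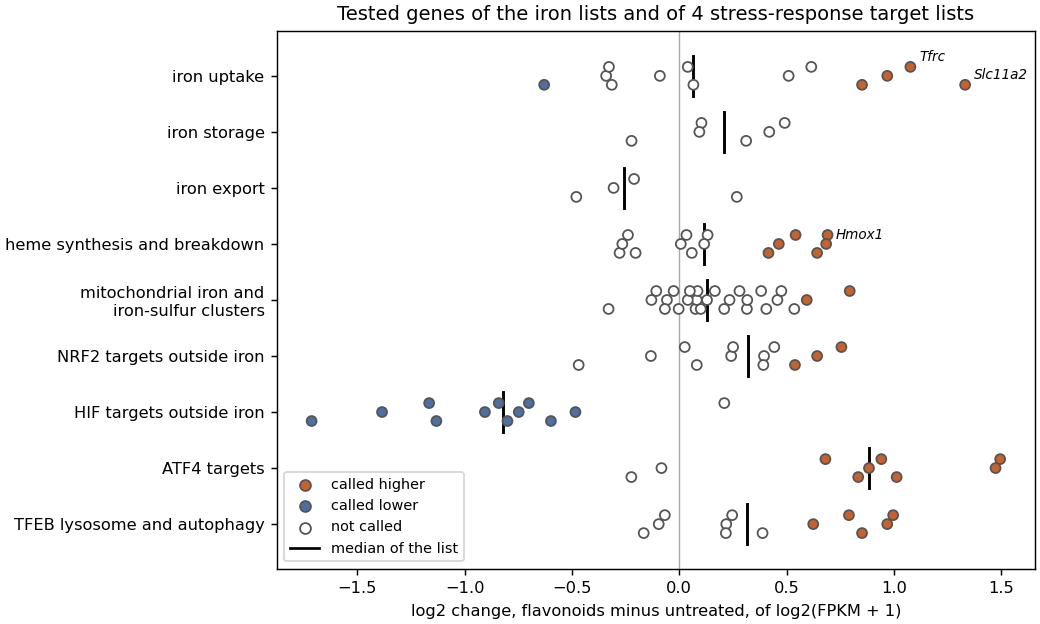
Log2 change, flavonoids minus untreated, of every tested gene in 5 iron-related lists and 4 lists of stress-response targets, with 1 point per gene, orange for called higher, blue for called lower, open for not called, and a black bar at each list's median. All hypoxia targets but Vegfa lie left of 0 (median −0.82). The genes of the ATF4 list called higher, Atf4 itself among them, lie right of 0 (list median 0.88) with 2 not called to the left. The iron lists have medians between −0.26 and 0.21.

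Promoter windows from RefSeq (GRCm38.p6, 250 bases before to 50 after each start) were matched for 7 of the 10 genes. Slc11a2, Slc40a1 and Hmox1 had no window, so none of the elements below was searched for in them. The hypoxia response core ACGTG, present on either strand in 19.6% of 32851 windows, was found in Tfrc, on the forward strand 2 bases before an annotated start, and in Ncoa4. The antioxidant element TGACNNNGC, present in 12.4% of windows, was found only in Ncoa4 among these 7 genes. The E-box CACGTG (7.15% of windows) and the amino acid response core TGATGNAA (3.97%) were found in none of them. A match is no site of binding, and these letters may occur outside the windows.

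Which of the iron regulatory proteins, hypoxia-inducible factors, MYC, ATF4, NRF2, TFEB or other factors set the levels of these 10 genes was not tested, since neither iron, protein nor binding was measured, and no test compared genes with 3′ and 5′ iron-responsive elements.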

How the data were processed

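RNA from 6 libraries (3 untreated, 3 flavonoid-treated) was prepared with a TruSeq kit after TRIzol extraction, per the labels' protocols. FastQC, HISAT2 and genome build mm10 are named in the submitters' processing notes, without versions. Which program counted reads, on which annotation and whether by strand, is not given in the sources used here. The authors deposited 1 table of FPKM per gene, the unit of every level given here. Whole fragments were recovered from the FPKM steps within 0.005 fragments and gave the depth. FPKM divides by depth and length, so a library's length trend or a few abundant genes move the other values.

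Groups were compared with limma 3.58.1 (R 4.3.3) on log2(FPKM + 1), with a trended prior, for genes whose mean reached 1 FPKM. P-values were adjusted by Benjamini-Hochberg and called under 0.05. The fitting code was tested on simulated counts that held no length trend, so that check does not cover the trend between these libraries. Intervals (95%) are unadjusted. Changes on this scale understate those of low genes. The length trend was removed per library by a loess curve (span 0.5). Tables and figures were made with Python 3.11.15, numpy 2.4.6, pandas 2.3.3 and matplotlib 3.10.9. A total of 23 alternatives were tried, 6 of them chosen after seeing the data. All 10 genes are named whatever their result. From other lists, up to 4 called genes with the smallest p were named, with regulators and exceptions added after their values were seen. The genes and lists were chosen with earlier results of these data known. Flvcr1 and Ftl2 are not analysed here. One further listed gene is not reported here.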

Additional observations from a re-analysis of the deposited data

How the results depend on the processing

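Slc11a2 was called higher in 23 of 23 alternatives (log2 change 1.22 to 1.47). Hmox1 was called in 18 of 23, Tfrc in 17 of 22, Ftl1 in 10, Fth1 in 8 and Aco1 in 1 of 23, while Steap3, Ncoa4, Ireb2 and Slc40a1 were called in none of theirs. Ncoa4, Slc40a1 and Tfrc were not tested at a minimum mean of 5 FPKM. Steap3 turned in sign with TPM scaling (−0.018), with quantile normalization (−0.020) and, with the length trend removed, without flavonoids replicate 3 (−0.019), and its change ran from −0.032 to 0.11 when 1 library was left out, below 0 without untreated replicate 1 or flavonoids replicate 3. The number of genes called, 1145, became 641 with no filter and 2510 with the length trend removed. Leaving out 1 library gave 140 to 1702 genes and 1 to 3 iron genes. With the length trend also removed, 1293 to 2519 genes were called (2249 and 1942 without untreated replicate 1 and 3, and 1782, 1911 and 2519 without flavonoids replicate 1, 2 and 3), and 5 iron genes in each case, against 6 with all libraries. The reported fit was planned without the replicate number as a term. Deviations of same-numbered libraries from their group means correlated at −0.14, −0.12 and −0.20, and those of differently numbered libraries at −0.09 to 0.17. With the replicate block, 457 genes and 1 iron gene (Slc11a2) were called, and 2017 and 5 with the block and the length trend removed together. Of the 10 genes, Slc40a1 rested on the fewest fragments, 113 to 199 per library, which limits its precision. The cause of these differences was not tested.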

Other observations

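Ferroptosis is a form of cell death in which iron drives the oxidation of membrane lipids, and its genes border on those of iron handling. Of 8 such genes listed, 7 were tested, 2 were called higher and 0 lower with limma, and the median log2 change was 0.43 against −0.02 for all tested genes. Slc3a2, the heavy chain of the cystine-glutamate exchanger, rose from 136 ± 12.9 to 291 ± 21.8 FPKM (SD over 3 libraries each, log2 change 1.09, limma adjusted p = 0.00353). Chac1, an enzyme that degrades glutathione and a member of the ATF4 list as well, rose from 51.9 ± 3.73 to 105 ± 1.21 FPKM (log2 change 1.01, limma adjusted p = 0.00288). The exchanger's light chain Slc7a11 stood at 0.436 and 1.27 FPKM, under the level needed for testing. Gpx4, which reduces oxidized lipids, stood at 345 ± 107 and 462 ± 5.35 FPKM (log2 change 0.47, limma adjusted p = 0.196, and 0.0171 with the transcript-length trend removed, where it was called), and Acsl4, which loads membranes with oxidizable fatty acids, at 8.15 and 8.35 FPKM (limma adjusted p = 0.988). Leaving out any 1 library gave 2 or 3 of these genes called higher.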
